A study of Mus musculus with 195 samples.

Results

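The actin filament system was followed through 10 genes measured by BATSeq in mouse stem cells. They encode the cytoplasmic actins (Actb, Actg1), the thymosins (Tmsb4x, Tmsb10), profilin (Pfn1), cofilin (Cfl1) and the tropomyosins (Tpm1, Tpm2, Tpm3, Tpm4). The 10 genes were taken by name from a table of 19736 genes and were chosen by their role in the actin system and by their levels in ESC-2i, ESC-FCS and NSC, known from earlier results of these data. Tpm1 was selected on its site shares, because the use of its polyadenylation sites differed between populations. Levels and site shares in the main cells are therefore given as a description and without a test.

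BATSeq primes cDNA at the poly(A) tail with a cell barcode and a unique molecular identifier (UMI), so that each UMI at a polyadenylation site counts as 1 transcript molecule whatever the length of the transcript. It was applied to embryonic stem cells (ESC) grown with the MEK inhibitor PD0325901 at 1 μM, the GSK3 inhibitor CHIR99021 at 3 μM and 10 ng/ml LIF, called ESC-2i, to ESCs grown in 10% FBS with LIF (10 ng/ml), called ESC-FCS, and to neural stem cells (NSC) derived from ES cells and grown with N2 and B27, and per the study's methods with EGF and bFGF. LIF was common to both ESC media. All cells were labelled as being in G1, and the study's methods give a sort for small cells and a single ES line with a Sox1-GFP reporter as the origin of every population. Of 144 cells sequenced, 33 ESC-2i, 33 ESC-FCS and 41 NSC were kept, each population coming from 2 library batches of 24 cells that used the same 24 cell barcodes. No replicate culture is named, so each population is 1 culture, its cells are not replicates of the condition, and no test between populations was made.

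Libraries made apart from these cells were not used in the choice of the genes. They comprise 42 kept ESC-FCS control cells of 48, 1 pool of 48 ESC-FCS cells prepared with the control cells, and 2 pools of 48 ESC-2i cells. The kept cells held 1079 to 21050 molecules on genes, with medians of 10864 in ESC-2i, 6375 in ESC-FCS, 3282 in NSC and 4723.5 in the control cells, and the pools held 179155 to 494799. ESC marker genes summed to 22.6, 18.3 and 1.25 molecules per 10000 in ESC-2i, ESC-FCS and NSC, and NSC marker genes to 1.85, 1.24 and 48.7, with Nanog and Pou5f1 at 0 in NSC, and Pax6 at 0 there too. Lists for some other cell types were low, with mesoderm and fibroblast genes at 0.0814, 0.0441 and 0.0658, primitive endoderm genes at 0.0271, 0.265 and 0.263, and astrocyte genes at 0.543, 0 and 0. Neuron genes were not as low, at 2.71, 5.21 and 4.48. They stood above the NSC marker genes in both ESC populations and above the ESC marker genes in NSC. The share of molecules on mitochondrial genes was 5.09% in NSC against 1.72% and 1.95% in ESC-2i and ESC-FCS. The ESC-2i pools stood apart from the ESC-2i cells by transcript length. With genes split into 5 groups by annotated transcript length, the median ratio of pool to cells was 0.922 and 0.832 in the group of shortest transcripts and 1.92 and 2.28 in group 4. The medians for the ESC-FCS pool over its control cells lay between 1.05 and 1.19. Control cells over the main ESC-FCS cells also differed by length, with 0.930 in the shortest group and 1.26 in group 4.

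Actin monomers assemble into filaments that give a cell its shape and carry its movement. Thymosins hold monomers back from assembly, profilin delivers them to growing ends, cofilin severs old filaments, and tropomyosins coat filaments and decide which other proteins may bind. Most of these proteins are made by several related genes, so a cell sets its actin system partly by which paralog it transcribes and by which terminal exon of a tropomyosin gene it uses.

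The clearest differences between the populations lay in the thymosins. Tmsb4x was lowest in ESC-2i, intermediate in ESC-FCS and highest in NSC. Per 10000 molecules, Tmsb10 was alike in the main cells of both ESC populations and low in NSC. Scaled to ERCC spike-in molecules, Tmsb4x in NSC over ESC-FCS fell from 3.22 to 1.27, and Tmsb10 in ESC-FCS over ESC-2i was 1.998. Between the pools made apart, Tmsb10 was 32.1-fold and 66.3-fold higher in ESC-FCS than in ESC-2i. Per 10000 molecules, Actb and Cfl1 were higher in NSC than in either ESC population, though scaled to ERCC spike-in molecules both were lower in NSC than in ESC-FCS, and Tpm1 molecules ended at different terminal exons in different proportions. The 10 genes together made up 51.4 of 10000 molecules in ESC-2i (95% exact Poisson interval 49.1 to 53.7), 60.0 in ESC-FCS (56.8 to 63.3) and 105.5 in NSC (100.4 to 110.8). In the ESC-FCS control cells, made apart, they made up 93.7 (89.7 to 97.8), nearer to NSC than to the main ESC-FCS cells. The ESC-FCS pool had 56.4 and the ESC-2i pools 33.7 and 24.7. This sum was not scaled to ERCC molecules. Intervals throughout cover counting error only, not differences between cultures.

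Each of the 10 genes had its most used site within 13 nt of an annotated transcript end, while the minor proximal site of Actb lay 242 nt before the nearest one. Shown here are the last 30 transcript bases before the main sites of both thymosin genes, which carried the largest differences in level, before the proximal site of Tpm1 and before both sites of Actb, 2 genes whose site shares differed between libraries. Sequences are those of annotated GENCODE vM21 transcripts on GRCm38, read along the transcript, with the hexamer AATAAA in capitals where it is present. The sources used here do not state whether positions count from 0 or 1, so each may lie 1 base off.
Tmsb4x main site (chromosome X, 167207095, minus strand): ttttaatatgcaAATAAAgttttaaaacct
Tmsb10 main site (chromosome 6, 72957354, minus strand): atgattgatgaaAATAAAaacacctcgtgg
Tpm1 proximal site (chromosome 9, 67027975, minus strand): tcgcccagtgtaaAATAAAcactgtacgct
Actb distal site (chromosome 5, 142903123, minus strand): gagaccAATAAAagtgcacaccttacctta
Actb proximal site (chromosome 5, 142903743, minus strand): acaccctttctttgacaaaacctaacttgc

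AATAAA, the canonical poly(A) signal, stood in 4 of these 5 windows and ATTAAA, its commonest variant, in none. Searched on the transcript strand only, AATAAA occurred in the last 30 bases of 42.1% of 41652 annotated protein-coding transcript ends and ATTAAA in 11.7%. All 5 sites lay in 3′ UTRs.

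Tmsb4x, the X-linked gene of thymosin beta 4, gave 489 molecules in NSC, 227 in ESC-FCS and 89 in ESC-2i. Per cell, ESC-2i had 0 to 12 molecules (median 2), ESC-FCS 0 to 21 (median 5) and NSC 0 to 48 (median 9), although NSC were the shallowest cells. The pooled level was 2.42 molecules per 10000 in ESC-2i (1.94 to 2.97), 10.0 in ESC-FCS (8.75 to 11.4) and 32.2 in NSC (29.4 to 35.2). Single cells overlapped in range between all 3 populations, and the levels of the 2 library batches of a population lay close together. They were 2.52 and 2.32 in ESC-2i, 10.1 and 9.96 in ESC-FCS, and 30.7 and 33.8 in NSC. The ratio was 4.14 for ESC-FCS over ESC-2i (exact interval 3.23 to 5.36), 13.3 for NSC over ESC-2i (10.6 to 16.9) and 3.22 for NSC over ESC-FCS (2.74 to 3.78). Each ratio exceeded 2-fold in all 4 pairs of library batches, and the order of the populations also held with ERCC scaling, at 8.54, 10.8 and 1.27.

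Tmsb10, the gene of thymosin beta 10, gave 305 molecules in ESC-2i and 182 in ESC-FCS but 18 in NSC. Per cell, ESC-2i had 2 to 26 molecules (median 7), ESC-FCS 0 to 21 (median 4) and NSC 0 to 3 (median 0). The pooled level was 8.28 per 10000 in ESC-2i (7.38 to 9.26), 8.03 in ESC-FCS (6.90 to 9.28) and 1.19 in NSC (0.702 to 1.87). The 2 ESC populations thus differed by less than the counting error, with a ratio of 0.970 (0.803 to 1.17) and batch pairs on both sides of 1, whereas scaling to ERCC molecules put ESC-FCS at 1.998 times ESC-2i. NSC lay 6.99-fold below ESC-2i (4.35 to 11.9) and 6.77-fold below ESC-FCS (4.17 to 11.7), more than 2-fold in all 4 batch pairs. With each cell thinned to 1000 molecules, Tmsb10 was detected in 20 of 33 ESC-2i, 20 of 33 ESC-FCS and 6 of 41 NSC, and without thinning in 33, 29 and 12 cells.

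**Figure D1:**
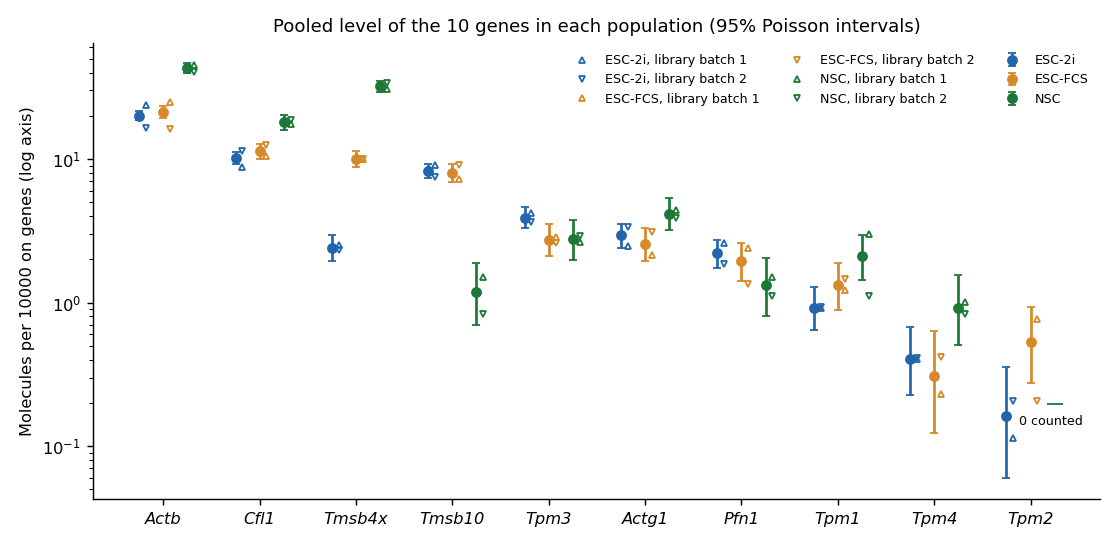
Molecules per 10000 on genes (log axis) for the 10 genes in the main cells of ESC-2i, ESC-FCS and NSC. Filled circles give the pooled level with its 95% exact Poisson interval, open triangles the 2 library batches, and the dash for Tpm2 in NSC the level that 3 molecules would give, since 0 were counted. Tmsb4x runs from 2.42 in ESC-2i to 32.2 in NSC while Tmsb10 is lowest in NSC at 1.19.

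Because both thymosins bind monomeric actin, the share of Tmsb4x in their sum was computed for each population. Tmsb4x made up 22.6% of thymosin molecules in ESC-2i (89 of 394, Clopper-Pearson 18.6 to 27.0), 55.5% in ESC-FCS (227 of 409, 50.5 to 60.4) and 96.4% in NSC (489 of 507, 94.4 to 97.9). Among cells with at least 3 thymosin molecules, Tmsb4x outnumbered Tmsb10 in 2 of 33 ESC-2i, 15 of 28 ESC-FCS and 33 of 34 NSC. The share in a single cell ran from 0 to 63.2% in ESC-2i (median 21.2), from 20.0 to 100% in ESC-FCS (median 54.6) and from 33.3 to 100% in NSC (median 100). The populations therefore overlapped cell by cell, with ESC-FCS spanning nearly the whole scale.

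**Figure D2:**
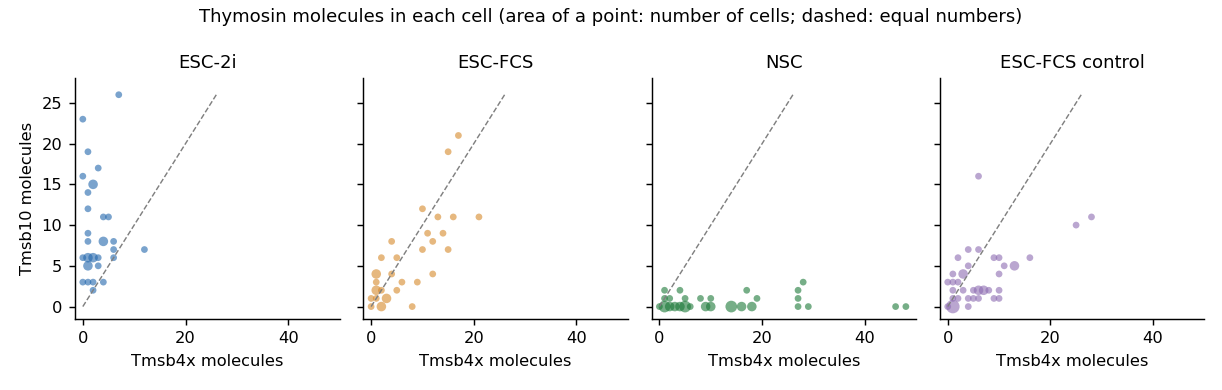
Tmsb10 molecules (y axis) against Tmsb4x molecules (x axis) in each cell of ESC-2i, ESC-FCS, NSC and the ESC-FCS control cells, with point area showing how many cells share a position and the dashed line marking equal numbers. NSC lie along the x axis with at most 3 Tmsb10 molecules, and most ESC-2i cells lie above the line.

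In the libraries that played no part in choosing the genes, the order of Tmsb4x was the same in the 2 media but the level of Tmsb10 was not. ESC-FCS control cells had 11.9 Tmsb4x molecules per 10000 and 6.50 Tmsb10 molecules, which is 1.19 (0.990 to 1.42) and 0.810 (0.646 to 1.01) times the main ESC-FCS cells. The ESC-FCS pool had 3.91 and 2.68, or 0.329 and 0.412 times the control cells made with it, so that both thymosins were lower in the pool by a similar ratio and the Tmsb4x share stayed at 59.3% against 64.6%. The ESC-2i pools had 1.75 and 0.424 Tmsb4x molecules per 10000. Tmsb4x was thus 2.23-fold (1.60 to 3.10) and 9.21-fold (5.59 to 15.8) higher in the ESC-FCS pool than in the ESC-2i pools, and the pools themselves differed 4.13-fold (2.53 to 7.01).

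Tmsb10 was nearly absent from the ESC-2i pools. It gave 4 and 2 molecules of 479483 and 494799, against 305 of 368362 in the ESC-2i cells, where each of the 33 cells had at least 2. The cells were 99.3-fold (38.4 to 367) and 205-fold (56.2 to 1699) above the pools, and Tmsb4x made up 95.5% and 91.3% of thymosin molecules in the pools against 22.6% in the cells. With annotated transcripts of 596.5 nt at the median, Tmsb10 was the shortest of the 10 genes, and the pools held fewer molecules of short transcripts in general, as given above. The part of transcript length in this difference was not tested. In a pool, fewer cells with a transcript and fewer molecules per cell cannot be told apart.

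Actb, the gene of beta-actin and the most abundant of the 10, gave 735 molecules in the ESC-2i cells, 482 in ESC-FCS and 651 in NSC, and was found in every kept cell. Per cell, ESC-2i had 6 to 59 molecules (median 21), ESC-FCS 2 to 62 (median 13) and NSC 4 to 45 (median 14). Pooled levels were 20.0 per 10000 in ESC-2i (18.5 to 21.4), 21.3 in ESC-FCS (19.4 to 23.2) and 42.9 in NSC (39.6 to 46.3). The ratio was 2.15 for NSC over ESC-2i (1.93 to 2.39) and 2.02 for NSC over ESC-FCS (1.79 to 2.27), and NSC was higher in all 4 batch pairs of both comparisons, by 1.70 to 2.73 and 1.61 to 2.79. Scaled to ERCC molecules these ratios were 1.75 and 0.796, so the direction against ESC-FCS rests on counting per 10000 molecules. Library batches of one ESC population differed more than the pooled levels of the 2 ESC populations did, at 23.7 and 16.6 in ESC-2i, 25.0 and 16.2 in ESC-FCS, and NSC batches stood at 45.1 and 40.4.

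The NSC level of Actb was not above that of every ESC library. ESC-FCS control cells had 44.0 Actb molecules per 10000 (41.3 to 46.8), with 47.9 and 38.1 in their 2 batches, which is 2.07-fold the main ESC-FCS cells (1.85 to 2.31). NSC over these control cells gave 0.975 (0.881 to 1.08). The ESC-FCS pool had 24.6, and the ESC-2i pools had 6.94 and 4.67, or 0.348 and 0.234 times the ESC-2i cells. Actb thus spanned 4.67 to 44.0 among ESC libraries alone.

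Actg1, the gene of gamma-actin, was less abundant, with 2.93, 2.56 and 4.15 molecules per 10000 in ESC-2i, ESC-FCS and NSC. NSC over ESC-2i was 1.41 (1.02 to 1.95) and NSC over ESC-FCS 1.62 (1.12 to 2.36), above 1 in all 4 batch pairs of each, although scaling to ERCC molecules turned the last ratio to 0.640. It varied little among the separate ESC libraries, at 3.45 in the control cells, 2.62 in the ESC-FCS pool and 2.42 and 3.23 in the ESC-2i pools. Actb made up 87.2% of the molecules of both genes in ESC-2i, 89.3% in ESC-FCS, 91.2% in NSC and 92.7% in the control cells, but 74.2% and 59.1% in the ESC-2i pools. Within the ESC populations this share followed the library batch, at 90.6% and 83.2% in ESC-2i and 92.1% and 83.9% in ESC-FCS, a wider gap than that between their pooled shares.

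**Figure D3:**
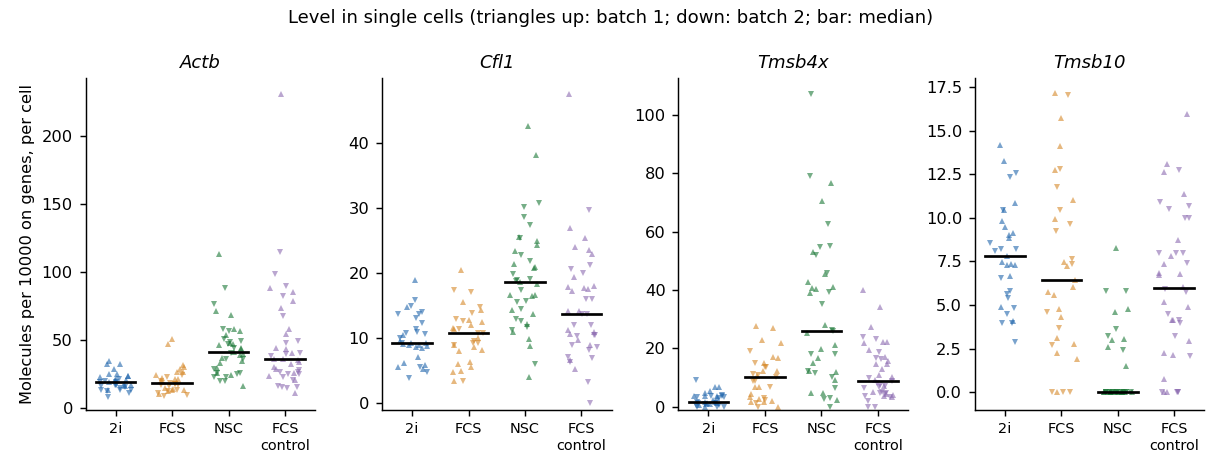
Level of Actb, Cfl1, Tmsb4x and Tmsb10 in single cells, as molecules per 10000 on genes, with a bar at the median of each population (2i, ESC-2i; FCS, ESC-FCS). Actb in the ESC-FCS control cells reaches the range of NSC, whereas Tmsb10 is at 0 in 29 of 41 NSC.

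Cfl1, the gene of non-muscle cofilin, gave 375 molecules in the ESC-2i cells, 256 in ESC-FCS and 274 in NSC, with at least 1 in every main cell. Per cell, ESC-2i had 3 to 29 molecules (median 10), ESC-FCS 1 to 20 (median 7) and NSC 1 to 16 (median 6). Levels were 10.2, 11.3 and 18.0 per 10000, and batches of a population differed less than for Actb. NSC over ESC-2i was 1.77 (1.51 to 2.08) and NSC over ESC-FCS 1.60 (1.34 to 1.90), with all batch pairs between 1.41 and 2.12, and scaling to ERCC molecules turned the second of these to 0.631. Control cells had 15.5 and the ESC-FCS pool 12.8, so that NSC over control cells was 1.17 (0.992 to 1.37). The ESC-2i pools had 9.20 and 5.11.

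Pfn1, the gene of profilin 1, went the other way. It gave 81, 44 and 20 molecules, or 2.20, 1.94 and 1.32 per 10000 in ESC-2i, ESC-FCS and NSC, with medians of 2, 1 and 0 molecules per cell. NSC over ESC-2i was 0.599 (0.348 to 0.986) and below 1 in all 4 batch pairs, while the interval of NSC over ESC-FCS included 1. Scaled to ERCC molecules, ESC-FCS over ESC-2i was 1.82, which turns the order of the ESC populations, and NSC over ESC-FCS was 0.268. Pfn1 moved most of the 10 genes between the 2 sets of ESC-FCS cells, at 5.96 in the control cells, which is 3.07-fold the main cells (2.17 to 4.42). It was 3.57 in the ESC-FCS pool and 0.855 and 0.465 in the ESC-2i pools. Pfn2, the paralog known from neurons, gave 16 molecules in NSC and 1 in each ESC population.

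**Figure D4:**
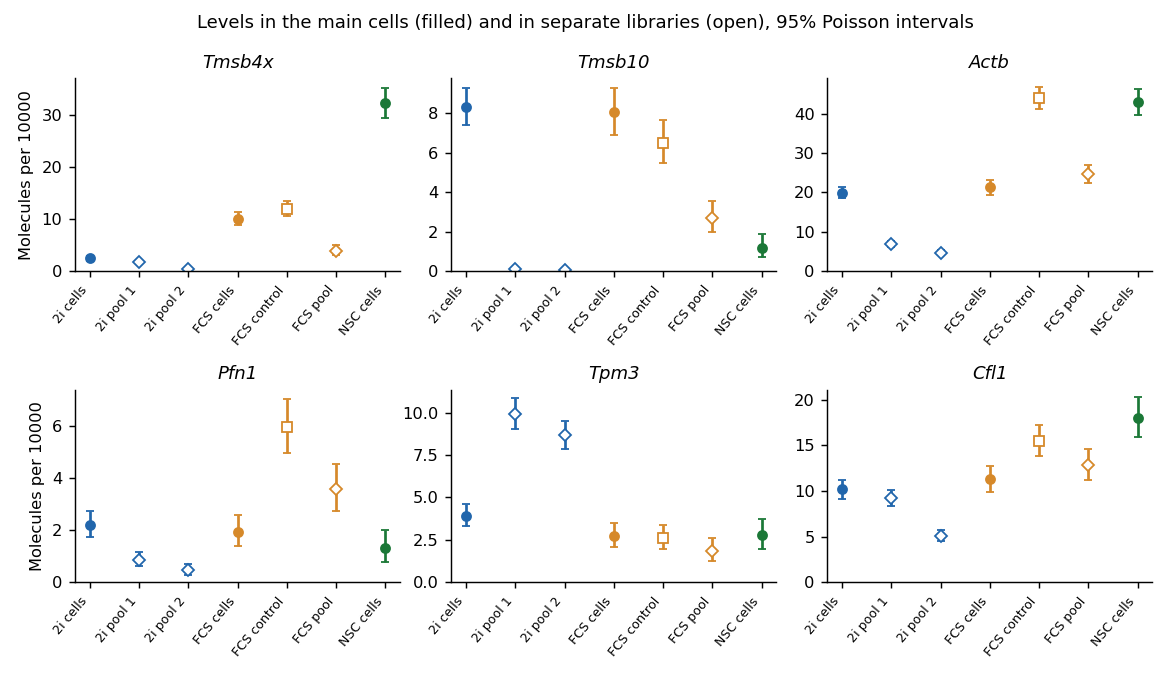
Molecules per 10000 on genes, with 95% exact Poisson intervals, for Tmsb4x, Tmsb10, Actb, Pfn1, Tpm3 and Cfl1 in the main cells (filled) and in libraries made apart (open). Tmsb10 is at 8.28 in ESC-2i cells but at 0.0834 and 0.0404 in the ESC-2i pools, while Tpm3 is higher in these pools than in any other library.

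Among the tropomyosins, Tpm3 was the most abundant. It gave 144, 62 and 42 molecules, or 3.91 per 10000 in ESC-2i (3.30 to 4.60), 2.74 in ESC-FCS (2.10 to 3.51) and 2.77 in NSC (1.99 to 3.74). Both other populations lay below ESC-2i in all 4 batch pairs, by ratios of 0.700 (0.511 to 0.949) and 0.707 (0.489 to 1.00), and none of these pairs reached 2-fold. Scaled to ERCC molecules, ESC-FCS was instead above ESC-2i, at 1.44. In the ESC-2i pools Tpm3 stood at 9.93 and 8.65, 2.54-fold and 2.21-fold above the cells, and the ESC-FCS pool had 1.84. Tpm3 made up 72.4%, 55.9% and 47.7% of the molecules of the 4 tropomyosin genes in ESC-2i, ESC-FCS and NSC. It made up 80.0% and 80.5% in the ESC-2i pools, 40.6% in the control cells and 29.7% in the ESC-FCS pool. The share was thus above 70% in the ESC-2i cells and both ESC-2i pools. It was below 60% in the main ESC-FCS cells, the control cells and the ESC-FCS pool.

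Tpm1 gave 34, 30 and 32 molecules, or 0.923, 1.32 and 2.11 per 10000 in ESC-2i, ESC-FCS and NSC. Its NSC level came mainly from 1 library batch, with 24 molecules (3.01 per 10000) in batch 1 and 8 (1.11) in batch 2, so that the ratio of NSC over ESC-2i, 2.28 (1.36 to 3.81), ran from 1.20 to 3.28 over the batch pairs. Of the separate ESC libraries, the control cells (2.56) and the ESC-FCS pool (2.68) stood above the pooled NSC level. NSC over the control cells was 0.825 (0.517 to 1.29). The ESC-2i pools, at 1.88 and 1.54, stood between the ESC-2i cells and NSC. Tpm4 was sparse, with 15, 7 and 14 molecules. Its level in NSC, 0.922, was 2.26-fold that of ESC-2i (1.01 to 5.03) and 2.99-fold that of ESC-FCS (1.13 to 8.74), past 2-fold in all 4 batch pairs of each comparison, although on few molecules, and with ERCC scaling these ratios were 1.84 and 1.18.

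Tpm2 was the rarest. It gave 6 molecules in ESC-2i and 12 in ESC-FCS but 0 in NSC, and 10 of the 12 came from 1 batch of ESC-FCS. Set against a floor of 3 molecules over all NSC, ESC-FCS was 2.68-fold higher, and the exact interval put it at least 1.86-fold higher. With that floor in single batches, NSC over ESC-FCS ran from 0.490 to 2.01, so no direction was given batch by batch. The 6 molecules in ESC-2i were also too few for a direction. The control cells and the ESC-FCS pool had 16 and 15 Tpm2 molecules, or 0.717 and 0.837 per 10000, and the ESC-2i pools 17 and 9, or 0.355 and 0.182. Each ESC-FCS library set thus had more Tpm2 per 10000 than each ESC-2i set, with a ratio of 3.25 (1.13 to 10.6) in the main cells and of 2.36 (1.10 to 5.03) and 4.60 (1.89 to 11.9) between the pools. In the main cells this rested on batch 1, since batch 2 alone gave 1.01.

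Of the 10 genes, 9 had the 20 molecules over both populations that each comparison asked for. Between ESC-FCS and ESC-2i, 1 of the 9 was at least 2-fold higher and 0 at least 2-fold lower, beside 8.17% and 14.5% of 5007 genes. Between NSC and ESC-2i, 4 were higher (Tmsb4x, Actb, Tpm1, Tpm4) and 1 lower (Tmsb10), beside 19.3% and 24.3% of 4803 genes. Between NSC and ESC-FCS, 3 were higher (Tmsb4x, Actb, Tpm4) and 1 lower (Tmsb10), beside 20.9% and 18.4% of 3600 genes. Scaling to ERCC molecules changed these splits to 4 higher and 0 lower in the first comparison, 1 and 2 in the second, and 0 and 3 in the third. Asking for 2-fold in all 4 batch pairs left 1 higher and 0 lower in the first comparison and 2 higher and 1 lower in each of the others, where 2.68% and 5.11%, then 9.6% and 9.95%, then 11.2% and 9.28% of all genes passed. The median log2 ratio of the 9 genes was -0.04, 0.83 and 0.68 in turn, against -0.07, -0.05 and 0.05 over all genes. The genes were chosen with these contrasts known, and nothing is read from these counts.

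In the separate libraries, of the 10 genes Actb and Pfn1 were at least 2-fold higher in the control cells than in the main ESC-FCS cells, where 15.9% of genes were, and 0 at least 2-fold lower, where 9.23% were. Relative to the control cells, Tmsb4x and Tmsb10 were at least 2-fold lower in the ESC-FCS pool, where 4.29% of genes were, and 0 at least 2-fold higher, where 11.2% were. In ESC-2i pool 1, Actb, Pfn1 and Tmsb10 were at least 2-fold lower than in the cells, beside 16.1% of genes, and Tpm1, Tpm2 and Tpm3 at least 2-fold higher, beside 36.1%. In pool 2, Actb, Pfn1, Tmsb4x and Tmsb10 were lower by that measure, beside 18.2% of genes, and Tpm3 higher, beside 42.3%. Cfl1, at a ratio of 0.502, did not reach that measure. By the median length of annotated protein-coding transcripts, Tmsb10, Pfn1, Tmsb4x and Actb (596.5 to 930 nt) were the 4 shortest of the 10 genes. These were also the 4 that were lower in pool 2, and the part of length was not tested. For Actb the median spans several annotated transcripts, of which 1 contains the main site. The length of that transcript was not used.

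Polyadenylation sites were compared next. For 5 genes a single site took nearly all molecules of the main cells, at 99.6% for Actg1, 99.0% for Tmsb10, 98.3% for Tmsb4x, 97.9% for Pfn1 and 97.3% for Cfl1. The most used site took 91.0% for Actb, 88.9% for Tpm2, 88.7% for Tpm3, 86.1% for Tpm4 and 51.0% for Tpm1. Tpm1 was thus the 1 gene of the 10 with no dominant site.

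The sites of Tpm1 lie in different terminal exons. The distal exon holds 80 coding bases up to the stop codon, and 8 annotated transcripts contain the site. The proximal exon, chromosome 9 from 67027966 to 67028167, holds 89 coding bases and 101 nt of 3′ UTR to the site, and 4 annotated transcripts contain it. A change of site in Tpm1 therefore exchanges the last coding exon, and with it the C-terminal end of the protein, together with the 3′ UTR.

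The distal site took 10 of 34 Tpm1 molecules in ESC-2i, 29.4% (15.1 to 47.5), 16 of 30 in ESC-FCS, 53.3% (34.3 to 71.7), and 23 of 32 in NSC, 71.9% (53.3 to 86.3). The 2 batches gave 25.0% and 33.3% in ESC-2i and 50.0% and 57.1% in ESC-FCS. In NSC they gave 83.3% (20 of 24) and 37.5% (3 of 8), so the second NSC batch lay between the ESC populations. Most cells with Tpm1 showed 1 end only, with the distal site as the sole site in 6 of 23 ESC-2i, 7 of 17 ESC-FCS and 11 of 19 NSC cells, at medians of 0 or 1 molecule per cell. Counted as reads, the distal share was 55.6%, 31.4% and 61.1%, which places ESC-FCS below ESC-2i and so turns that order.

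The separate libraries of ESCs gave distal shares as high as those of NSC. The share was 80.7% in the ESC-FCS control cells (46 of 57, 68.1 to 90.0), 85.4% in the ESC-FCS pool (41 of 48, 72.2 to 93.9), and 70.0% (63 of 90, 59.4 to 79.2) and 81.6% (62 of 76, 71.0 to 89.5) in the ESC-2i pools. The intervals of both ESC-2i pools lie wholly above that of the ESC-2i cells, in the same medium. The spread of the Tpm1 share between libraries of one medium, 29.4% to 81.6% in ESC-2i, was larger than the difference of 42.5 percentage points between NSC and ESC-2i cells.

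**Figure D5:**
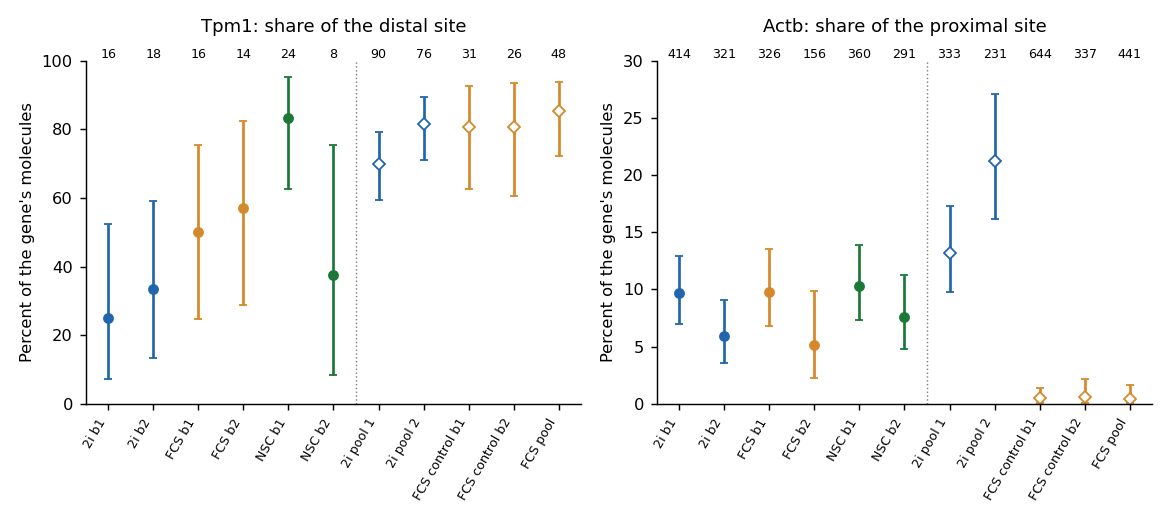
Share of Tpm1 molecules at the distal site (left) and of Actb molecules at the proximal site (right), in percent with 95% Clopper-Pearson intervals, by library batch (b1, b2) for the main cells (filled) and for libraries made apart (open). The number above each point is the gene's molecules, the y axes differ, and the separate ESC libraries reach 70.0% to 85.4% for Tpm1 while Actb runs from 0.454% to 21.2%.

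Actb had another end 620 nt upstream of the main one, 55 nt after the stop codon where the distal site lies 675 nt after it. The proximal site took 59 of 735 Actb molecules in ESC-2i, 8.03% (6.17 to 10.2), 40 of 482 in ESC-FCS, 8.30% (5.99 to 11.1), and 59 of 651 in NSC, 9.06% (6.97 to 11.5). The populations did not differ beyond counting error, and the library batches ran from 5.13% to 10.3%. Libraries made apart differed far more. The share was 0.510% (5 of 981) in the ESC-FCS control cells, 0.454% (2 of 441) in the ESC-FCS pool, and 13.2% (44 of 333) and 21.2% (49 of 231) in the ESC-2i pools.

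The window before the proximal Actb site, printed above, holds neither AATAAA nor ATTAAA, and 12 of the 15 bases that follow it in the transcript are A, as in 0.115% of 15-base windows of protein-coding transcripts. The authors filtered out alignments followed by a window of this length with more than a set share of A, and this site equals that share without exceeding it. A further criterion of theirs on a longer window was not checked here. Whether these molecules arose by internal priming was not tested.

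Tpm3 also had a minor end, 293 nt upstream of its main site and without either hexamer. The main site took 89.6%, 88.7% and 85.7% of Tpm3 molecules in the ESC-2i, ESC-FCS and NSC cells, 93.1% in the control cells, and 92.6% and 93.5% in the ESC-2i pools, but 72.7% (24 of 33, 54.5 to 86.7) in the ESC-FCS pool. Pfn1 used its main site for 96.9% to 100% of molecules in the populations, the control cells and the ESC-FCS pool, and for 46.3% (19 of 41) and 73.9% (17 of 23) in the ESC-2i pools. Of the genes with at least 20 molecules in both populations, Tpm1 differed by at least 10 percentage points in the share of its most used site, by 23.9 between ESC-FCS and ESC-2i, 42.5 between NSC and ESC-2i and 18.5 between NSC and ESC-FCS. It was 1 of 8 members that could be compared in the first contrast and 1 of 7 in each of the others, and the others differed by at most 3.87. Differences of 10 points or more were seen in 21.9% of genes between ESC-FCS and ESC-2i, 26.5% between NSC and ESC-2i and 24.9% between NSC and ESC-FCS.

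Cell-to-cell variation within a population was tested against the technical noise of ERCC spike-in transcripts plus a biological squared coefficient of variation (CV2) of 0.25, with the test of Brennecke and colleagues and Benjamini-Hochberg adjustment over all genes of sufficient level. At an adjusted p below 0.1, 0.719% of genes were called variable among ESC-2i cells, 3.85% among ESC-FCS cells and 2.16% among NSC, and none of the members that had enough molecules for the test, which were 8 of 10 in either ESC population and 6 in NSC, with 0 of them at an unadjusted p under 0.05. Tpm2 and Tpm4 were too sparse in every population, and Pfn1 and Tmsb10 in NSC. Tmsb4x in NSC came closest, with a CV2 of 0.560 beside a technical CV2 of 0.168 (p = 0.0775, adjusted p = 1). Actb had a CV2 of 0.106, 0.226 and 0.335 in ESC-2i, ESC-FCS and NSC, beside technical values of 0.0819, 0.136 and 0.119. Tmsb10 in ESC-2i, at 0.124, lay below its technical value of 0.172.

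Levels of these genes were weakly related across cells. Over the 41 NSC, log2 levels of Actb and Cfl1 had a Pearson r of 0.49, and over 33 ESC-FCS and 33 ESC-2i cells 0.29 and -0.06. The other pairs with enough molecules to compare lay between -0.42 (Actg1 and Pfn1 in ESC-2i) and 0.38 (Actb and Tmsb10 in ESC-2i). Cells of a population share culture and library, and their depths differ, so these values are descriptions of sparse counts.

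Across the 6 library batches, the genes with levels most like those of the 4 most abundant members were named by Pearson r of log2 levels among 1279 genes. Batches of a population share a culture, so 6 points stand for 3 cultures. For Tmsb4x these were Slc25a5 (r = 0.994), which encodes a mitochondrial ADP/ATP carrier, Mbd3 (0.992), for a methyl-CpG binding domain protein, and Zfr (0.989), for an RNA-binding zinc finger protein. For Tmsb10 they were Gga2 (0.996), for a protein of vesicle sorting, Hat1 (0.993), for a histone acetyltransferase, and Msh6 (0.993), a mismatch repair gene. For Actb they included Nudt4 (0.985) and Nisch (0.978), and for Cfl1 they were Slc3a2 (0.992), Cnbp (0.990) and Atp5g3 (0.986), for an ATP synthase subunit.

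Other genes of the actin cytoskeleton were taken from a list of 72. Between ESC-FCS and ESC-2i, 48 had enough molecules, and 2 were at least 2-fold higher and 7 lower, or 1 and 3 in all 4 batch pairs. Between NSC and ESC-2i it was 7 and 13 of 45, or 3 and 4, and between NSC and ESC-FCS 11 and 8 of 40, or 7 and 3. The medians of their log2 ratios were -0.40, 0.09 and 0.38, beside the values over all genes given above. Over all genes, 8.17% were higher and 14.5% lower in the first comparison, 19.3% and 24.3% in the second, and 20.9% and 18.4% in the third. In all 4 batch pairs these shares were 2.68% and 5.11%, 9.6% and 9.95%, and 11.2% and 9.28%. The list was chosen with earlier results known, and nothing is read from these counts.

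Marcks, whose protein links actin filaments to the membrane, followed the order of Tmsb4x. It gave 15, 32 and 133 molecules, or 0.407, 1.41 and 8.76 per 10000 in ESC-2i, ESC-FCS and NSC, with ratios of 3.47 (1.82 to 6.89), 21.5 (12.6 to 39.5) and 6.20 (4.19 to 9.43) for ESC-FCS over ESC-2i, NSC over ESC-2i and NSC over ESC-FCS. Its relative Marcksl1 was 2.23-fold higher in NSC than in ESC-2i (1.63 to 3.05), or 1.82-fold when scaled to ERCC molecules. Myh10, a heavy chain of non-muscle myosin II, was 3.92-fold and 3.13-fold higher in NSC than in ESC-2i and ESC-FCS, on 21, 13 and 10 molecules.

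Other genes of the list were lower in NSC or in ESC-FCS than in ESC-2i, while further members of the same list were higher, as counted above. Ezr, which encodes the membrane linker ezrin, stood at 3.91, 1.54 and 1.05 per 10000, and the myosin light chain gene Myl12b at 3.88, 2.21 and 0.988, in the order ESC-2i, ESC-FCS, NSC. Scaled to ERCC molecules, Myl12b was instead higher in ESC-FCS than in ESC-2i, at 1.17. Tagln2, for an actin-bundling transgelin, gave 100, 18 and 5 molecules and was 8.25-fold lower in NSC than in ESC-2i (3.42 to 25.9). Actn1, for a crosslinking actinin, was 6.05-fold lower in NSC than in ESC-2i, on 3 molecules (1.94 to 30.4), and its ratio of ESC-FCS over ESC-2i was 0.886, or 1.83 when scaled to ERCC molecules. Msn, for moesin, was 2.43-fold lower in ESC-FCS than in ESC-2i (1.47 to 4.19). Arpc1b, of the filament-branching Arp2/3 complex, and Cald1, for caldesmon, were 7.69-fold (1.92 to 67.0) and 7.08-fold (1.75 to 61.9) lower there on 2 molecules each. With ERCC scaling the ratios of ESC-FCS over ESC-2i were 0.848 for Msn, 0.268 for Arpc1b and 0.291 for Cald1.

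Among listed genes past 2-fold in all 4 batch pairs of NSC and ESC-FCS, the largest ratios after Marcks were those of Arpc2, another Arp2/3 subunit (3.41), Capza2, of the capping protein (3.20), Myh10, the muscle-type cofilin Cfl2 (2.65) and the GTPase gene Rac1 (2.63). With ERCC scaling these 5 ratios lay between 1.04 and 1.35. Lower in NSC were Twf2, for a twinfilin that binds actin monomers (4.10-fold, 1.93 to 10.0), Enah, for a filament-elongating protein (3.01-fold, 2.09 to 4.42), and Myl12b (2.23-fold, 1.23 to 4.28). Leaving aside ERCC-scaled ratios, each listed gene given with a ratio was past 2-fold in all 4 pairs of library batches of that comparison. The exception was Actn1 in ESC-FCS over ESC-2i, whose batch pairs ran from 0.515 to 1.51.

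Reads that align equally well to a member and to a closely related locus were left out, since only uniquely aligned reads were counted. The processed actin copy Actg-ps1 gave 3, 2 and 2 molecules (ESC-2i, ESC-FCS, NSC in this order), Tpm3-rs7 6, 3 and 0, and Tpm3-rs2 0, 3 and 2. Reads lost to such copies by the filter on unique alignment were not measurable here for any member. The levels of members with such copies, Actg1 and Tpm3 among them, are uncertain to that extent.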

How the data were processed

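BATSeq libraries of 144 mouse cells, 48 further ESC-FCS control cells and 3 pools of 48 cells were analysed. The authors deposited counts of UMIs, called molecules here, and counts of reads per polyadenylation site and cell, without normalization. They trimmed the terminal A stretch, aligned reads with GSNAP to GRCm38 and ERCC sequences (Ensembl 73 genes), kept unique alignments, removed A-rich and likely internally primed ones, merged UMIs of a gene 1 base apart and merged positions within 12 nt. The libraries were amplified by a Quartz-Seq variant with bead steps that select against short products. The submitters' processing notes name HTSeq and R 3.0.2. The deposited tables of single cells hold the same values as the deposited site table for all 144 cells, and the gene table differs from its sums in 4 of 2111752 entries. Symbols were matched for 19321 of 19736 identifiers.

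The 10 genes and all lists were chosen with earlier results of these data known. Cells with at least 1000 molecules on genes that are in the gene table were kept (107). Levels are pooled molecules per 10000 on genes, with exact Poisson intervals. Ratios have exact conditional binomial intervals, and shares Clopper-Pearson intervals, all at 95%. A count of 0 was set to 3 molecules, over the whole group, for a bound. Genes needed 20 molecules over both populations for a 2-fold call, and 20 in each for a site comparison. Sites of the separate libraries were matched within 25 nt. For detection, each cell was thinned once to 1000 molecules, and all kept cells were deep enough. Doublets were not called, since cells were sorted singly and pooled sums were used. Cell-to-cell variation used the Brennecke test, rewritten in Python, for genes with a normalized mean above 0.5. It recovered known answers in simulated counts whose variable genes varied strongly, and recovery of weaker variation was not simulated. Named besides the members were listed cytoskeletal genes past 2-fold in all 4 batch pairs (at most 6 per comparison and direction) and, for Actb, Cfl1, Tmsb4x and Tmsb10, the 3 genes with the most similar levels over batches, of which 1 is not reported here. The list of 72 genes covered actin paralogs, monomer binding, Arp2/3, capping, crosslinking, myosin II, membrane links and their signalling. Alternatives covered cell filters, single batches, weighting, ERCC or median-ratio scaling, reads, filters on low counts, and settings of the variation test. Those on 1 dominant cell, paralog shares and site matching were added after seeing the data. GENCODE vM21 transcripts on GRCm38 gave annotations and sequences. Python 3.11.15, numpy 2.4.6, scipy 1.17.1, pandas 2.3.3 and matplotlib 3.10.9 were used.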

Additional observations from a re-analysis of the deposited data

How the results depend on the processing

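Of 11 member ratios past 2-fold, 98 of 99 values under the alternatives stayed on the same side of 1 and 80 stayed past 2-fold. The exception was Actb in NSC over ESC-FCS, which reversed to 0.796 when scaled to ERCC molecules. That scaling moved the median log2 ratio of all genes to 0.98 (ESC-FCS over ESC-2i), -0.35 (NSC over ESC-2i) and -1.29 (NSC over ESC-FCS), because ESC-FCS had 24.0 molecules per ERCC molecule against 11.7 and 9.49. Among ratios short of 2-fold it also turned Actg1 (0.640), Cfl1 (0.631), Tpm1 (0.628) and Tpm3 (0.399) in NSC over ESC-FCS and Actg1 (1.80), Pfn1 (1.82), Tpm3 (1.44) and Tpm4 (1.56) in ESC-FCS over ESC-2i. It gave Tmsb10 1.998, Actb 2.20 and Tmsb4x 8.54 in ESC-FCS over ESC-2i with 4 members past 2-fold, Actb 1.75 in NSC over ESC-2i with 3 members past 2-fold, and Tmsb4x 1.27 and Tmsb10 0.0583 in NSC over ESC-FCS. Median-ratio scaling moved the medians to -0.21, -0.38 and -0.11, and gave Actb 1.71 in NSC over ESC-2i with 3 members past 2-fold. Batch 1 alone gave Tmsb10 0.792 in ESC-FCS over ESC-2i and Actb 1.90 in NSC over ESC-2i, and batch 2 alone gave Tmsb10 1.21, Actb 2.44 and 2.49 over ESC-2i and ESC-FCS, 3 members past 2-fold in NSC over ESC-2i and a Tpm1 distal share of 37.5% in NSC. Reads in place of molecules gave Tmsb10 0.733 in ESC-FCS over ESC-2i with 2 members past 2-fold, Tmsb4x 2.59 in NSC over ESC-FCS, and Tpm1 distal shares of 55.6% and 31.4% in ESC-2i and ESC-FCS. Genes past 2-fold numbered 1134, 2095 and 1415 in the 3 comparisons, against 653, 1044 and 791 in batch 1, 702, 1115 and 578 in batch 2, and 130, 257 and 129 with at least 100 molecules. With all cells of at least 1000 molecules, 1 member (Actb) was called variable in ESC-FCS, and without the CV2 margin 2 (Actb and Tmsb4x) were in ESC-FCS and 2 in NSC. The causes of these changes were not tested. Precision was limited by depth for Tpm1, Tpm2 and Tpm4, with at most 34 molecules in a population. No paired analysis was possible because these ratios carry no test. Well names place batch 1 of each population in rows A to D and batch 2 in rows E to H, each with a batch barcode of its own, and the same-batch ratios are those of batch 1 and batch 2 alone.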
